A study of Anas platyrhynchos with 5 samples.

Results

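The hairpin mir-204 gives rise to miR-204-5p and miR-204-3p, one mature miRNA from each side of its stem. Both arms were taken by name from the read tables of 5 small RNA libraries made from duck (Anas platyrhynchos) feather bulbs, the growing base of the feather, and they are 2 of the 134 mature miRNAs that the tables list. The study was a search for miRNAs that differ with the colour of the bulb. Black bulbs gave 2 libraries: Cui Hei, from a pure breed with pure black plumage (black replicate 1), and black F2, from the black bulbs of Kaiya-Liancheng F2 ducks with white-black plumage (black replicate 2). White bulbs gave 3 libraries: Kaiya and Liancheng, each from a pure breed with pure white plumage (white replicates 1 and 2), and white F2, from the white bulbs of Kaiya-Liancheng F2 ducks with white-black plumage (white replicate 3). All ducks were 12 months old and no treatment is named. Each library pools birds of 1 stock, with 3 bulbs per bird. The labels give neither the number of birds nor whether the black and white F2 bulbs came from the same birds. Among the pure breeds, colour and breed cannot be told apart. A library held between 1601329 and 4269854 reads on mature miRNAs.

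A miRNA guides a silencing complex to messenger RNAs that pair with its seed, the bases just behind its 5′ end. In human cells miR-204-5p has the same seed as miR-211-5p, and the pair lie in introns of the ion channel genes TRPM3 and TRPM1. TRPM1 and miR-211 are transcribed in melanocytes, the pigment cells, under the control of MITF, the main transcription factor of that lineage, and miR-204 is abundant in the pigment epithelium of the eye. The 2 reference miRNAs stand for the other tissues of a bulb. miR-205 is enriched in epithelium such as the keratinocytes that build the feather, and miR-22 is abundant in mesenchymal cells such as those of the dermal papilla.

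The mature sequences of both arms and of both references are shown as the tables list them, 5′ to 3′, so that they can be compared over their whole length and in the seed (bases 2 to 8, in capitals).
miR-204-5p: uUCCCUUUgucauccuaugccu
miR-204-3p: gCAGGGACagcaaagggaugcuc
miR-205b-5p: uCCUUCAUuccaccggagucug
miR-22-3p: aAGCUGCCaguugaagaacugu

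miR-204-5p is 22 bases long with a GC content of 45.5%, and miR-204-3p is 23 bases long with a GC content of 60.9%. Both sequences were the same in all 5 tables. None of the other listed sequences has the seed of either arm, and the closest in sequence, miR-10b-2-5p for the 5p arm and miR-103-2-3p for the 3p arm, are 10 edits away. No hairpin named mir-211 is among the 73 hairpins listed. Whether reads of a duck miR-211 are counted under miR-204-5p was not tested.

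The listed hairpin is shown with both arms in capitals, because it shows which stretch of the 3p arm faces the seed of the 5p arm.
mir-204: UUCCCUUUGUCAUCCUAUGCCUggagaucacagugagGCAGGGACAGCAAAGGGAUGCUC

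The 5p arm covers bases 1 to 22 and the 3p arm bases 38 to 60, with 15 bases between them, so the listed hairpin begins and ends with its arms. The letters AAAGGGA, the complement of the 5p seed, stand at bases 12 to 18 of the 3p arm. In the structure predicted by RNAfold, at -25.5 kcal/mol, 18 base pairs formed, 16 of them between the arms, and all 7 seed bases of the 5p arm were paired. No read on the hairpin fell outside the arms in any library (0 remaining reads in all 5).

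miR-204-5p was an abundant miRNA in black bulbs and a minor one in white bulbs. It had 43560 reads in Cui Hei and 18237 in black F2, against 426 in Kaiya, 194 in Liancheng and 278 in white F2. Scaled by TMM, a normalization that assumes most miRNAs are level between libraries, these are 11695 CPM (counts per the scaled library size; 95% exact Poisson interval 11586 to 11806), 8785 (8658 to 8914), 104 (94.0 to 114), 120 (104 to 138) and 106 (94.1 to 119) CPM in the same order. The colours did not overlap, and the counting intervals of the 3 white libraries overlapped. The black mean of 10240 ± 2058 CPM (SD, n = 2) stood against a white mean of 110 ± 8.91 CPM (SD, n = 3). The log2 fold change, black over white, was 6.54 ± 0.21 (SE), a 93.2-fold difference, with an adjusted p of 1.2e-05 in edgeR's quasi-likelihood test. Reads carry no molecular identifiers, so every interval here covers counting error only.

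miR-204-3p, the arm that complements the 5p seed, moved the same way at a far lower level. It had 104 reads in Cui Hei and 58 in black F2, against 3 in Kaiya, 1 in Liancheng and 2 in white F2. This corresponds to 27.9 CPM (22.8 to 33.8), 27.9 (21.2 to 36.1), 0.729 (0.150 to 2.13), 0.619 (0.0157 to 3.45) and 0.764 (0.0926 to 2.76) CPM. The black libraries were level with each other and above the white ones, all of which were at or under the floor of 3 reads (0.729 to 1.86 CPM). The log2 fold change was 5.20 ± 0.28 (SE), with an adjusted p of 0.000124 in edgeR's quasi-likelihood test. This arm passed the filter on low counts only through the black libraries, where it is high. With no filter, over all 134 miRNAs, it was at 5.21 (adjusted p 0.000127 in edgeR).

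**Figure D1:**
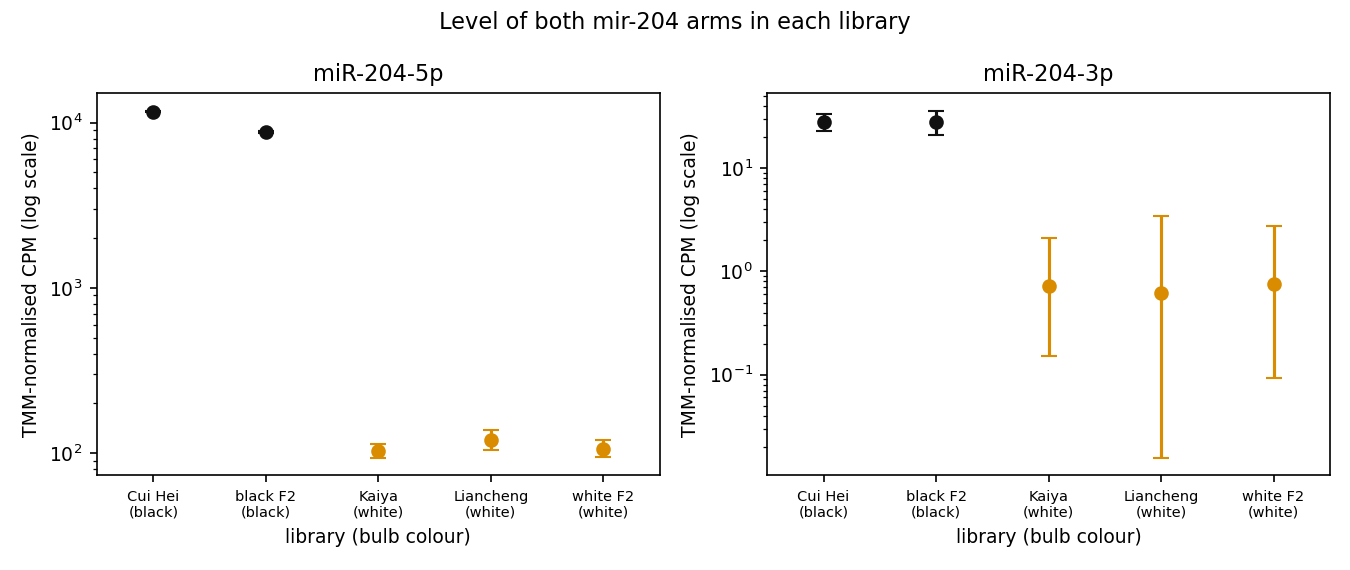
TMM-normalised level of miR-204-5p (left) and miR-204-3p (right) in each of the 5 libraries, on log axes in CPM, with 95% exact Poisson intervals as bars (counting error only). The 5p arm lies at 8785 CPM or above in both black libraries and at 120 CPM or below in the 3 white ones, and the 3p arm at 27.9 CPM against 0.764 CPM or below.

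Of the 114 miRNAs tested, edgeR called 2 as higher in black bulbs (1.75%), and these are the arms of mir-204. It called 0 as lower (0%). At an unadjusted p under 0.05 it gave 3 higher and 1 lower, and DESeq2 and limma-voom called the same arms and no other miRNA. The next largest change was that of miR-144-3p, a red blood cell miRNA, at 1.24 ± 0.45 (SE), which did not pass (adjusted p 0.945 in edgeR). The median log2 fold change over all tested miRNAs was -0.03. For 8 of the 114 (7.02%), the mir-204 arms among them, the lower black library exceeded the highest white one, and for 9 (7.89%) the order was the opposite without overlap.

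**Figure D2:**
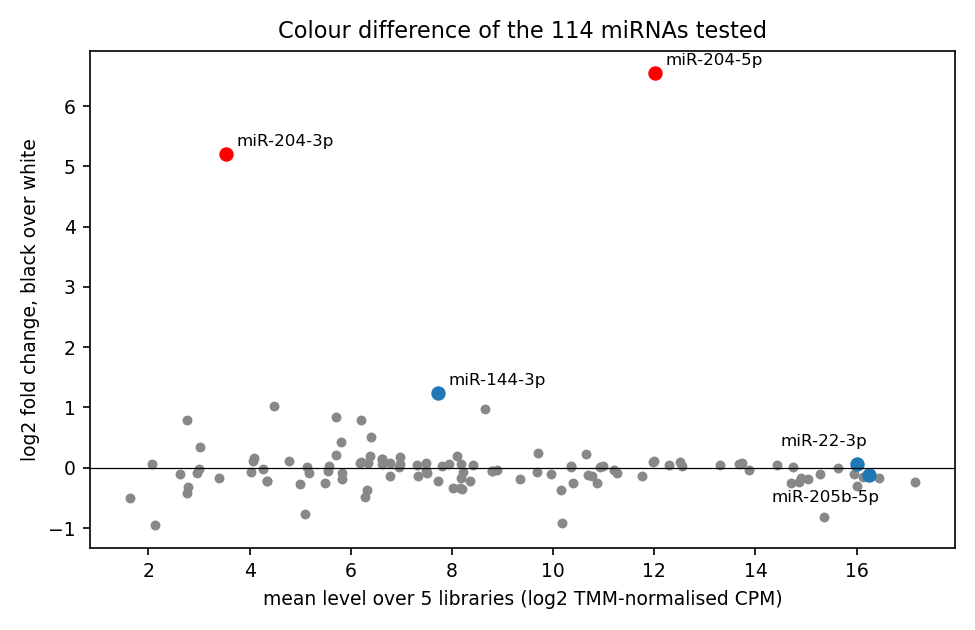
Log2 fold change, black over white, against the mean level in log2 TMM-normalised CPM for the 114 miRNAs tested (1 point each). Red points are miR-204-5p at 6.54 and miR-204-3p at 5.20, and the blue ones are miR-144-3p at 1.24, miR-22-3p at 0.06 and miR-205b-5p at -0.12.

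As a share of all mature miRNA reads, miR-204-5p took 1.25% in Cui Hei (95% Clopper-Pearson interval 1.24% to 1.26%), or 1 read in 79.8. In black F2 it took 0.917% (0.904% to 0.931%), or 1 in 109. In white bulbs the share was 0.00998% for Kaiya (interval 0.00905% to 0.0110%), 0.0121% for Liancheng (interval 0.0105% to 0.0139%) and 0.00978% for white F2 (interval 0.00866% to 0.0110%), or 1 read in 10023, 8254 and 10228. The mean white share was thus 0.979% of the mean black share. In percentage points, the drop in share from black to white, 1.07, was the second in size among all miRNAs. The largest change was that of miR-10b-2-5p, which went the other way (mean 3.05% in black, 4.84% in white) and whose colours overlapped.

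Ranked by reads within each library, with 1 as the most abundant, miR-204-5p was 20th in Cui Hei and 21st in black F2. The 19 miRNAs above it in Cui Hei held 90.9% of the reads, and the 20 above it in black F2 held 92.7%. In Cui Hei it stood between the endothelial miR-126-5p (45818 reads) and miR-99a-5p (38884 reads), and in black F2 between miR-99a-5p (20941 reads) and miR-130a-3p (12470 reads).

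In white bulbs miR-204-5p stood at rank 69 in Kaiya, 66.5 in Liancheng and 71 in white F2, near the middle of the list. It lay between miR-146b-2-3p (456 reads) and miR-449c-1-5p (404 reads) in Kaiya. In Liancheng it shared its 194 reads with miR-460a-5p, just under miR-106-1-5p (198 reads), and in white F2 it stood between miR-449c-2-5p (284 reads) and miR-106-1-5p (277 reads). Against the median miRNA of the same library, it was 83.0-fold higher in Cui Hei and 64.0-fold higher in black F2, and 0.918, 1.03 and 0.859 times the median in Kaiya, Liancheng and white F2.

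The mean rank of miR-204-5p was 20.5 ± 0.71 in black and 68.8 ± 2.25 in white bulbs (SD), a shift of 48.3 places. The exact permutation test over the libraries (2-sided, n = 2 and 3) gave p = 0.1, the smallest that its 10 splits allow. miR-204-3p stood at rank 96 in Cui Hei and 94 in black F2, just under miR-2131-3p (116 reads) and miR-2188-3p (67 reads), and at 120.5, 126.5 and 123.5 in Kaiya, Liancheng and white F2, where it was tied with other miRNAs of 1 to 3 reads. Its mean rank moved by 28.5 places, from 95.0 ± 1.41 to 123.5 ± 3.0 (SD). The next largest shifts among miRNAs listed in every table were 17.0 places for miR-144-3p and 16.5 for miR-2188-5p.

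**Figure D3:**
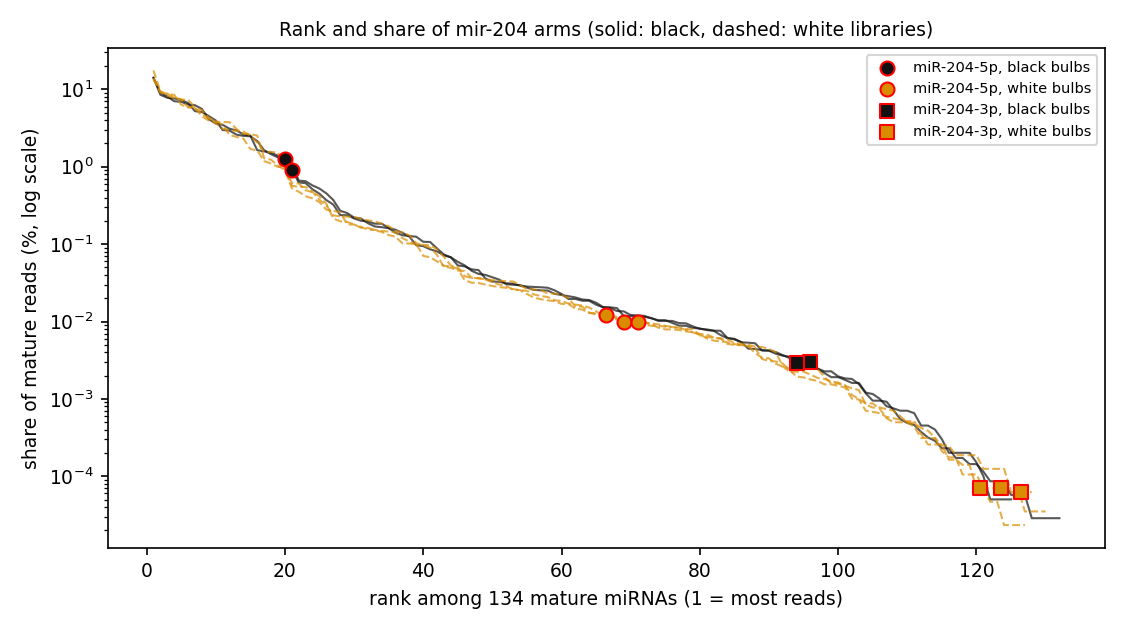
Share of mature miRNA reads (%, log axis) against rank for all miRNAs with reads in each library (lines, solid for black and dashed for white), with the mir-204 arms marked. The curves nearly coincide, while miR-204-5p (circles) sits at ranks 20 and 21 in black and 66.5 to 71 in white libraries, and miR-204-3p (squares) at 94 and 96 against 120.5 to 126.5.

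Ratios to a second miRNA of the same library need no scaling between libraries. Relative to the epithelial miR-205b-5p, miR-204-5p had 16.4% of its reads in Cui Hei and 11.4% in black F2, so that 6.09 and 8.80 reads of the reference were found for each read of miR-204-5p. In white bulbs it had 0.118% in Kaiya, 0.165% in Liancheng and 0.132% in white F2, with 851, 608 and 756 reads of the reference for each of its own. The log2 ratio averaged -2.87 ± 0.38 in black (SD, n = 2) and -9.51 ± 0.25 in white (SD, n = 3), which is a difference of 6.64 or 99.7-fold with an exact permutation p of 0.1.

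Relative to the mesenchymal miR-22-3p, miR-204-5p had 17.2% of its reads in Cui Hei and 13.3% in black F2, or 5.82 and 7.53 reads of miR-22-3p per read. In Kaiya, Liancheng and white F2 it had 0.186%, 0.157% and 0.172%, or 538, 636 and 581 reads of miR-22-3p per read. The log2 ratio averaged -2.73 ± 0.26 in black and -9.19 ± 0.12 in white, a difference of 6.46 or 88.0-fold with an exact permutation p of 0.1 (n = 2 and 3). Cui Hei was above black F2 by either reference. The order of the white libraries was not the same, with Liancheng highest against miR-205b-5p and Kaiya highest against miR-22-3p.

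miR-204-3p gave the same picture with few reads. In black bulbs 2551 and 2766 reads of miR-205b-5p were found per read of miR-204-3p in Cui Hei and black F2, and 2438 and 2368 reads of miR-22-3p. Its log2 ratio to miR-205b-5p averaged -11.37 ± 0.08 in black and -16.43 ± 0.21 in white bulbs, a difference of 5.06. Its log2 ratio to miR-22-3p averaged -11.22 ± 0.03 and -16.10 ± 0.20, a difference of 4.88. Each of these 4 ratio comparisons had p = 0.1 in the exact permutation test (2-sided, n = 2 and 3), before and after Benjamini-Hochberg adjustment, and a threshold of 0.05 is out of reach for this design.

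The references themselves did not separate the colours. miR-205b-5p took 7.63%, 8.07%, 8.49%, 7.36% and 7.40% of the reads in Cui Hei, black F2, Kaiya, Liancheng and white F2, and miR-22-3p 7.29%, 6.91%, 5.37%, 7.70% and 5.68%. Their log2 fold changes were -0.12 ± 0.15 and 0.06 ± 0.18 (SE), each with an adjusted p of 0.971 in edgeR. The sign of the first turns to 0.02 with library size alone, and that of the second to -0.07 with upper-quartile scaling. With miR-205b-5p held constant in every library, edgeR put miR-204-5p at 6.66 (adjusted p 0.000249), and with miR-22-3p held constant at 6.47 (adjusted p 8.69e-05).

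**Figure D4:**
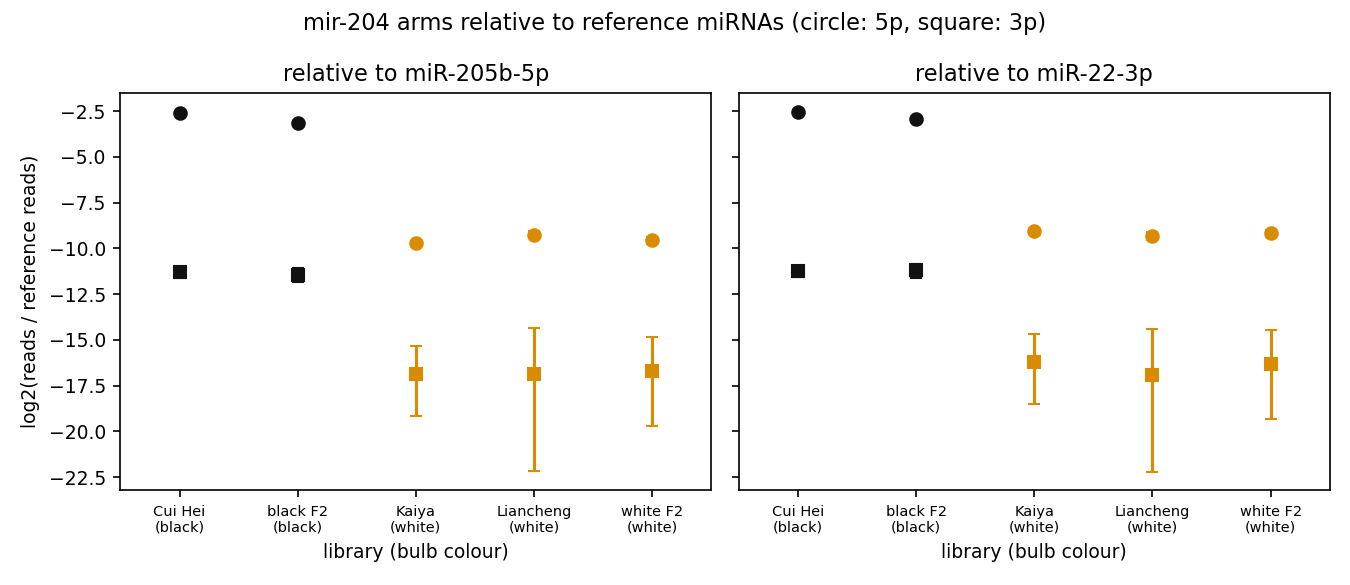
Log2 of the reads of miR-204-5p (circles) and miR-204-3p (squares) over those of miR-205b-5p (left) or miR-22-3p (right) in each library, with 95% counting intervals. Circles lie between -3.14 and -2.54 in the black libraries and between -9.73 and -9.07 in the white ones, and the intervals of the 3p arm in white bulbs are wide because they rest on 1 to 3 reads.

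The F2 libraries are the only black and white bulbs from 1 stock. There the log2 ratio of miR-204-5p, black over white, was 6.37 (95% counting interval 6.20 to 6.55), and that of miR-204-3p was 5.19 (3.27 to 8.27). Of the 104 miRNAs with at least 50 reads over both libraries, 3 (2.88%) reached a log2 ratio of 1 in this direction. Both mir-204 arms are among these 3. Outside mir-204 the log2 ratio farthest from 0, that of miR-10b-2-5p, was -1.15. A comparison of 1 library with 1 library has no replicate check.

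The other 5 pairs of a black with a white library gave ratios of the same order for miR-204-5p. Black F2 was above its parental breeds by 6.41 (6.27 to 6.55) for Kaiya, where 4.81% of the miRNAs reached a log2 ratio of 1, and by 6.19 (5.99 to 6.40) for Liancheng, where 5.83% did. Cui Hei was above Kaiya by 6.82 (6.68 to 6.96; 2.78% of miRNAs), above Liancheng by 6.60 (6.40 to 6.82; 6.67%) and above white F2 by 6.78 (6.61 to 6.96; 6.54%). Each of these shares counts both mir-204 arms. Among miRNAs listed in the tables of both libraries, none of another hairpin differed as much in either direction in any of the 6 pairs, and the log2 ratio farthest from 0 was that of miR-2188-5p in Cui Hei over Liancheng, at 3.59. The ratios with Kaiya leave out 1 miRNA without a family number, which its table does not list and which had 332 reads in Cui Hei and 107 in black F2. The 6 pairs share libraries and are not independent of each other.

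Between libraries of the same colour, miR-204-5p differed far less than between the colours. Cui Hei exceeded black F2 by 0.41 (0.39 to 0.44), more than counting error. Of the 106 miRNAs compared there, both mir-204 arms among them, 16 differed by more than miR-204-5p. In that pair 1.89% of the miRNAs reached a log2 ratio of 1 in either direction. The white pairs differed by -0.21 for Kaiya over Liancheng (interval -0.46 to 0.04), -0.04 for Kaiya over white F2 (-0.26 to 0.19) and 0.18 for Liancheng over white F2 (-0.09 to 0.45), and each interval includes 0. In these pairs 12.6%, 6.67% and 8.74% of the miRNAs reached a log2 ratio of 1 in either direction, and 65 other miRNAs in the first and 76 in the last differed by more than miR-204-5p. For miR-204-3p, Cui Hei and black F2 differed by less than counting error (interval -0.48 to 0.49).

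**Figure D5:**
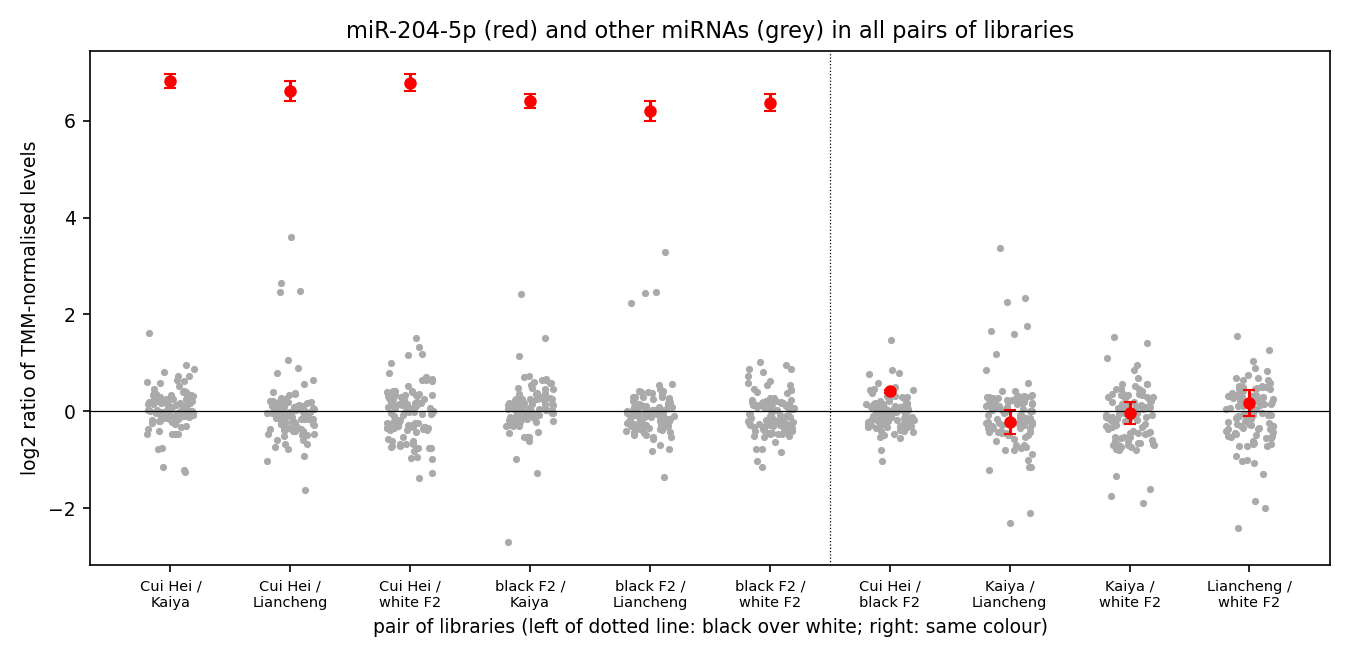
Log2 ratio of TMM-normalised levels of miR-204-5p (red, with 95% counting intervals) and of miRNAs of other hairpins with at least 50 reads that both tables list (grey) in all 10 pairs of libraries. The red points lie between 6.19 and 6.82 in the 6 black over white pairs, above all grey points, and between -0.21 and 0.41 in the pairs of the same colour, among the grey points.

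The 5p arm was the major one in all libraries. There were 419 reads of miR-204-5p per read of miR-204-3p in Cui Hei, 314 in black F2 and between 139 and 194 in the white libraries. The 3p arm made up 0.238% of the miR-204 reads in Cui Hei (104 of 43664, interval 0.195% to 0.289%) and 0.317% in black F2 (58 of 18295, 0.241% to 0.410%). In white bulbs it made up 0.699% in the Kaiya library (3 reads, interval 0.144% to 2.03%), 0.513% in the Liancheng library (1 of 195 reads, 0.0130% to 2.82%) and 0.714% in white F2 (2 of 280, 0.0866% to 2.56%). The mean share was 0.278 ± 0.0558% in black and 0.642 ± 0.112% in white (SD), with an exact permutation p of 0.1 (n = 2 and 3). The groups did not overlap, but the interval of each white library includes the black shares, so that a difference in arm balance was not detectable at this depth within a library.

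By pattern over the 5 libraries, measured as the Euclidean distance between centred log2(CPM + 1) levels, the miRNA nearest to miR-204-5p was its partner arm at 2.69. From other hairpins the nearest were miR-144-3p at a distance of 5.79, then miR-2188-3p at 6.01 and miR-2188-5p at 6.07. For scale, the references, which did not separate the colours, stood at 7.07 (miR-22-3p) and 7.28 (miR-205b-5p). Even the nearest miRNAs of other hairpins were thus closer to the distance of the references than to that of the partner arm. The levels were centred but not scaled, so the distance depends on the size of a change and not only on its shape. It therefore largely restates the fold changes. miR-144-3p, which erythroid cells carry, stood at 348 and 299 CPM in Cui Hei and black F2 and at 63.2 to 191 CPM in the white libraries. It and miR-144-5p (107 and 92.0 against 86.5, 16.7 and 67.6 CPM) were the most abundant of the other miRNAs whose black libraries lay above all white ones, with miR-367-5p (95.0 and 84.3 against 74.9, 82.4 and 79.1 CPM). None of the 3 passed the test. Which miRNAs separate depends on the scaling. By share of reads, but not by TMM level, the more abundant miR-30e-1-5p and miR-99a-5p were also higher in black without overlap. Their shares were 2.93% to 2.94% against 2.53% to 2.85%, and 1.05% to 1.12% against 0.912% to 0.981%.

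Among the 15 listed miRNAs of families linked to melanocytes and pigment, 13 were tested, the mir-204 arms rose, 0 fell and 11 did not pass. Those arms were also the only 2 of all 114 tested miRNAs called higher (1.75%). The calls are thus a result about mir-204 and not about the list. The median log2 fold change of the 13 was 0.03, and that of the 11 without mir-204 was 0.02, beside -0.03 over all tested miRNAs. miR-125b-5p, a miRNA studied in pigment cells for its effect on melanin synthesis, was at 0.09 ± 0.15 (SE). miR-148a-3p, of a family that targets MITF in human melanoma cells, was at -0.24 ± 0.25, and miR-222a-3p, known from melanoma growth, at 0.11 ± 0.14. The summed level of the melanocyte-linked miRNAs other than mir-204 was 40468 and 46244 CPM in black and 41922 to 57565 CPM in white bulbs, so the colours overlapped. Most of this sum was miR-148a-3p alone, at 24247 and 29661 CPM in black and 25203 to 40922 CPM in white bulbs. The sum thus mainly follows that miRNA.

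The markers of other cell types in a bulb were measured beside miR-204. Keratinocyte miRNAs (0 of 8 passed, median -0.14) summed to 103231 and 116089 CPM in black and 106838 to 128005 CPM in white bulbs. Dermal mesenchyme miRNAs (0 of 4, median 0.06) summed to 66520 and 68497 against 56045 to 76834 CPM. Nearly all of this sum was the reference miR-22-3p, at 66163 CPM in black F2 and 68075 CPM in Cui Hei. Most of the keratinocyte sum was the reference miR-205b-5p, at 71241 CPM in Cui Hei and 77293 CPM in black F2. Both sums thus mainly repeat the references. The miRNAs of leukocytes (0 of 2, median -0.22), endothelium (0 of 2, 0.05) and muscle (0 of 2, -0.23) overlapped between colours in their sums too.

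Erythroid miRNAs, both miR-144 arms, had a median of 1.01, and 0 of 2 passed. They summed to 391 and 455 CPM in black and 79.9 to 277 CPM in white bulbs, so their sums did not overlap between colours. Both arms are among the 8 of 114 tested miRNAs (7.02%) whose black libraries lay above all white ones. Their part in the miR-204 result was not tested. The neural miRNAs, both miR-9 arms, had a median of -0.34 (0 of 2 passed), at 418 and 522 against 498 to 664 CPM. Of these arms, miR-9-5p was lower in black without overlap, at -0.34 ± 0.19 (SE). So was miR-429-5p of the keratinocyte list, at -0.42 ± 0.29 (SE), with only 9 to 30 reads per library. Both are among the 9 of 114 tested miRNAs (7.89%) whose black libraries lay below all white ones. No liver miRNA of the list was among the names. In bulbs, which mix cell types, fewer cells of a type and less of the miRNA per cell cannot be told apart.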

How the data were processed

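Small RNA of feather bulbs was sequenced in 5 pooled libraries (black n = 2, white n = 3). The authors ran miRDeep2 2.1.2, per the series' design text, and the submitters' processing notes also name FastQC and Bowtie 0.12.2. As for the genome build, its name was not given in the sources used here. The values deposited by the authors and used here are raw read counts, 1 for each mature miRNA and 1 for each hairpin. Per the file headers, 3 of the 5 tables counted reads that reach a few bases past a mature miRNA, and the other headers do not say. The authors' deposited CPM equal the raw count over the table's total to within 0.005. All counts were whole numbers. A hairpin that only the Kaiya table leaves out was set to 0 there in the test and not used in the pairs with Kaiya. Where several hairpins list the same miRNA, its highest count was used.

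The levels, ratios and ranks were computed from these counts with Python 3.11.15 and scipy 1.17.1. Depth was 3476838 reads in Cui Hei, 1988317 in black F2, 4269854 in Kaiya, 1601329 in Liancheng and 2843291 in white F2. These sums take each miRNA name at its highest count, and the shares of reads rest on them. With all lines summed, the totals were 3943654, 2262858, 4805899, 1819255 and 3328150 in the same order. Colours were compared in all 114 miRNAs kept by filterByExpr (99.998% of reads) with edgeR 4.0.16 (R 4.3.3), TMM, the quasi-likelihood test and Benjamini-Hochberg adjustment at 0.05, after a test on simulated data. The biological coefficient of variation was 0.275. Each SE of a log2 fold change is its absolute value over the square root of the test's F statistic, and is approximate. Log2 ratios of reads between miRNAs used a pseudocount of 0.5 on each count. RNAfold 2.7.2 folded the listed hairpin. Named are both arms, the references (let-7d-5p and miR-26a-5p as alternatives), rank neighbours, the 3 nearest in pattern, the 3 most abundant with separated colours, and list members.

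Members and lists were chosen with earlier results of these data known. Pools hold an unstated number of birds, and each pool is of a different stock or bulb colour. A p-value thus covers only the spread among the 5 pools, in which differences between stocks and technical ones cannot be told apart. Alternatives were other scalings, filters, DESeq2 1.42.0, limma 3.58.1 (voom), summed lines, hairpin totals, other references and leaving out each library. A further alternative took stock, as pure breed or F2, as a block.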

Additional observations from a re-analysis of the deposited data

How the results depend on the processing

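Both mir-204 arms kept their direction and their call under the alternatives in which they were tested. Without a black library, the 1 left is assumed to vary like the white ones. For miR-204-5p the log2 fold change lay between 6.34 and 6.74 over 17 alternatives (adjusted p up to 0.00131), and for miR-204-3p between 4.95 and 5.35 over 15 (up to 0.00288, over edgeR, DESeq2 and limma-voom). The number called higher in black was 1 in place of 2 where 10 reads were required in every library, which removes miR-204-3p, and 1 with hairpin totals, where both arms are 1 feature. The number called lower was 0 to 1 on leaving out a library. The 1 was miR-6564-3p without Kaiya, at -1.34 (adjusted p 0.0376 in edgeR), and the cause was not tested. The F2 log2 ratio of miR-204-5p, 6.37, was 6.19 with upper-quartile scaling and 6.55 with library size alone. In the edgeR fit of all 5 libraries, these scalings put the median log2 fold change of the 114 tested miRNAs at -0.16 and 0.10. The median of the F2 pair itself was not computed. With hairpin totals the mean rank of mir-204 was 23.5 in black and 61.7 in white bulbs, among 73 hairpins.

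The difference of log2 ratios ranged from 6.37 to 6.90 for miR-204-5p to miR-205b-5p and from 6.27 to 6.64 to miR-22-3p. It was 6.70 to let-7d-5p and 6.60 to miR-26a-5p. By TMM level, though not by share of reads, let-7d-5p itself was lower in black without overlap. It stood at 79364 and 86466 CPM in black and 90250 to 98021 CPM in white bulbs. For miR-204-3p the difference of log2 ratios ranged from 4.78 to 5.43 to miR-205b-5p and from 4.60 to 5.25 to miR-22-3p. The difference in 3p share was -0.429 to -0.325 percentage points on leaving out a library, and rests on 1 to 3 reads of this arm per white library. With stock as a block, coded only as pure breed or F2, edgeR gave 6.57 (adjusted p 0.000108) and 5.20 (adjusted p 0.00137). Cui Hei, Kaiya and Liancheng share a level of this block, so breed was not adjusted for. No paired analysis was possible because the labels give no replicate numbers that tie a black library to a white one.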

Other observations

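For a view of arm balance, a miRNA name shared by several hairpins was assigned to 1 of them. This left 62 hairpins with 1 name on each arm and at least 50 reads in all. The 5p arm was the major one in 34 of these and the 3p arm in 28. The median share of the minor arm was 0.963%. That of mir-204 was 0.267%, at place 21 from the smallest, so its arm balance was not at the edge of these 62 hairpins. The reads were summed over all 5 libraries. Of the 62863 reads of mir-204, 43664 were from Cui Hei and 18295 from black F2, so its place is mainly that of black bulbs.

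Among hairpins ranked by total reads in a library, mir-204 was 23rd in Cui Hei, 24th in black F2, 62nd in Kaiya, 60th in Liancheng and 63rd in white F2. miR-204-5p had 14.7% of the reads of let-7d-5p in Cui Hei and 10.2% in black F2, against 0.115%, 0.130% and 0.108% in Kaiya, Liancheng and white F2. Against miR-26a-5p it had 18.8% and 14.7% in the black and 0.170%, 0.147% and 0.203% in the white libraries.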
